A study of Mus musculus with 8 samples.

Results

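The integrated stress response is described here through 10 genes, Atf4, Atf5, Atf3, Ddit3, Chac1, Trib3, Asns, Psat1, Phgdh and Slc7a11, taken by name from the 21812 gene symbols of a count table. All 10 were found in it, and all 10 passed the filter on low counts that 14229 genes passed. The libraries came from mouse embryonic stem cells under culture conditions meant to drive them towards primitive endoderm, the extraembryonic layer that later forms yolk sac. There were 4 groups of 2 libraries each, named by line and genotype: Mettl3 WT with Mettl3 cKO, and Virma WT with Virma cKO. METTL3 is the catalytic subunit and VIRMA a scaffold subunit of the complex that places N6-methyladenosine (m6A) on RNA. The labels give WT or cKO as the genotype. Their protocols name a SMARTer stranded and a VAHTS library kit, without saying which library used which. Kit can therefore not be told apart from line or genotype in any difference below. The driver and timing of the deletion, the number of clones and the separation of cultures are, in the sources used here, not given, so p-values cover only the scatter of these libraries, possibly technical in origin.

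In the integrated stress response, kinases that sense amino acid shortage, unfolded protein, haem shortage or double-stranded RNA phosphorylate the initiation factor eIF2. General translation then falls, while ATF4, whose RNA carries upstream open reading frames, is translated more. ATF4 is a bZIP transcription factor that binds DNA with partners such as C/EBP proteins and switches on genes for amino acid synthesis and uptake, tRNA charging and, under lasting stress, cell death. The step from eIF2 to ATF4 is translational, so counts of Atf4 RNA do not measure it.

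Total counts were 15568628 to 17306227 per library. In Mettl3 WT 15415 and 15452 genes had a count, below the 16476 to 17086 of the other libraries. Over all genes together, the libraries of Virma cKO were no further apart than sampling noise (chi-square per degree of freedom 0.914, against 1.31 to 2.84 in the other pairs) and were counted as 1 sample, so this group has no SD. Over the 505 genes with at least 10000 counts in the pair the value was 3.46, above sampling noise and below the 4.66 to 9.78 of the other pairs. The targeted gene did not check the Mettl3 labels: Mettl3 RNA stood at 35.5 ± 0.371 CPM (SD, n = 2) for Mettl3 WT against 34.6 ± 1.04 CPM for libraries labelled Mettl3 cKO. CPM are read counts scaled by the total of each library and its TMM normalisation factor. Virma RNA was 91.0 ± 3.24 CPM for Virma WT against 72.3 CPM for Virma cKO. Every direction below is therefore one between libraries labelled cKO and libraries labelled WT. Of 15 primitive endoderm markers, 11 were lower in Mettl3 cKO and 15 in Virma cKO, none was higher, and no marker was without a count in any group. Their summed level was 11510 CPM in Mettl3 WT, 7356 to 7392 in Mettl3 cKO, 9474 to 9492 in Virma WT and 1520 to 1547 in Virma cKO. Of 13 fibroblast markers, 11 and 13 were higher, with a summed level of 205 to 214, 380 to 383, 486 and 1116 to 1124 CPM in the same order. These counts use the call defined in the next paragraph. Over all genes tested, 27.1% were called higher and 28.0% lower in the Mettl3 line, and 26.2% and 26.1% in the Virma line. In such bulk libraries, fewer cells of a type and less RNA per cell cannot be told apart. In Mettl3 cKO against Virma WT, where 29.3% of all genes were higher and 29.2% lower, 11 primitive endoderm markers were lower and 1 higher. The fibroblast markers turned around, with 2 higher and 8 lower. The part of these shifts in the changes of the stress genes was not tested.

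The effectors of the response rose in both knockout comparisons, and the genes of amino acid supply went in different directions. A gene is called below when its Benjamini-Hochberg adjusted p in the quasi-likelihood test of edgeR, over all genes tested, is under 0.05. In libraries labelled Mettl3 cKO, 7 of the 10 genes were higher and 1 was lower than in Mettl3 WT. Over all genes the called shares were 27.1% higher and 28.0% lower. The median log2 fold change of the 10 genes was 0.44, against 0.0086 over all genes tested. In libraries labelled Virma cKO, 7 were higher and 2 lower than in Virma WT, where 26.2% of all genes were called higher and 26.1% lower. The medians there were 0.78 and 0.020. Rises of at least 2-fold were made by 3 genes in the Mettl3 line, Chac1, Trib3 and Slc7a11, and by 4 in the Virma line, the same 3 and Atf5. Such rises made up 4.39% and 5.38% of all genes tested.

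**Figure D1:**
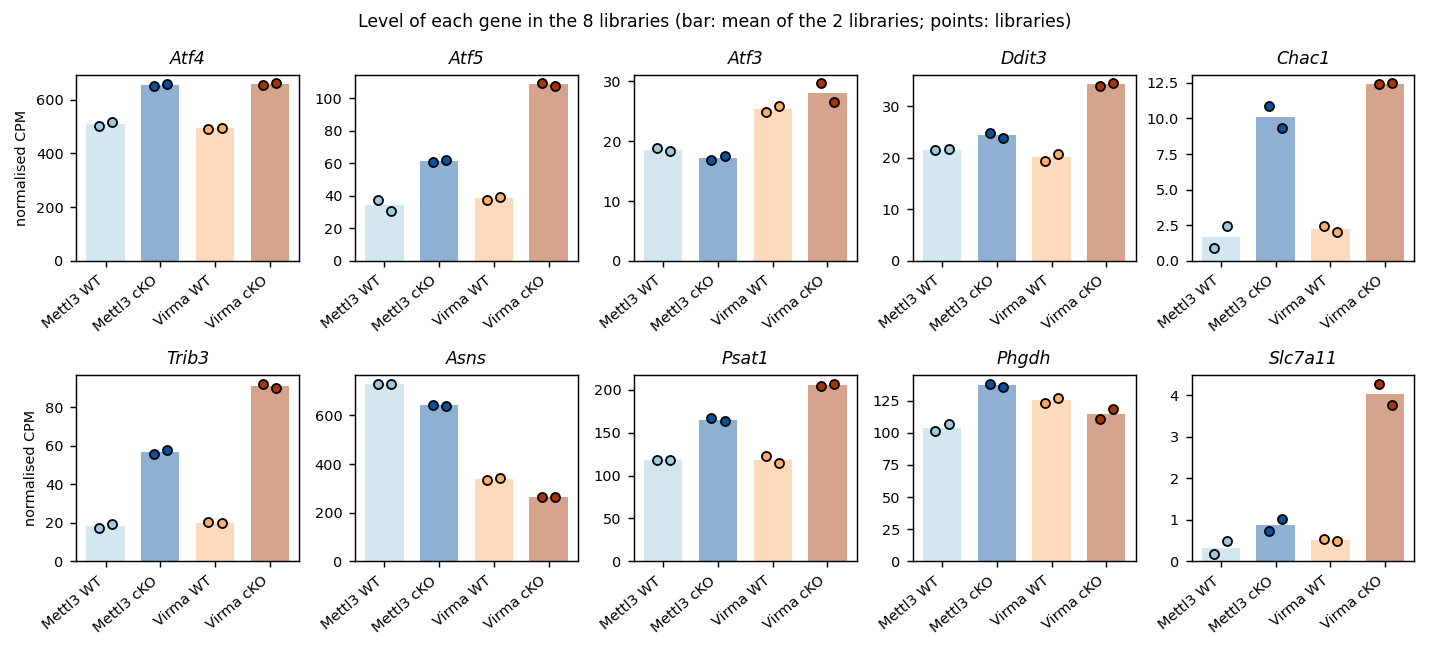
Normalised CPM (linear axes from 0) of the 10 genes in the 8 libraries; bars are the mean of the 2 libraries of a group and points are single libraries. Chac1 and Trib3 are low in both WT groups and high in both cKO groups, and Asns steps down between the lines.

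Promoter sequence around the annotated start was read from RefSeq, and stretches are shown for 5 genes whose windows hold a motif match: Chac1, Trib3, Slc7a11 and Psat1, which rose in both lines, and Asns, which fell. Atf5, which rose more than Psat1, has no match in either of its 2 windows and is not shown. The table of RefSeq windows, each 250 bases before to 50 after a start, is on GRCm38.p6, an older build than the mm39 that the submitters' processing notes name, and it held all 10 genes in 12 windows. They are written 5′ to 3′ on the gene's strand, with capitals at matches to TGATGNAA, the core of the element bound by ATF4 and C/EBP dimers, or to TGNNGCAAT, a looser C/EBP-type motif spelled after the windows had been read. Both strands were searched, and the motifs can overlap.
Chac1 (chr2:119350992-119351096, plus strand): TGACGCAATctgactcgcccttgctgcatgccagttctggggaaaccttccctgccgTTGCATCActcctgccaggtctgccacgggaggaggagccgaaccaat
Trib3 (chr2:152344011-152344133, minus strand): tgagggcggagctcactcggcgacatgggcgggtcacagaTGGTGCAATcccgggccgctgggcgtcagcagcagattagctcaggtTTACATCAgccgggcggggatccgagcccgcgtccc
Slc7a11 (chr3:50443613-50443719, minus strand): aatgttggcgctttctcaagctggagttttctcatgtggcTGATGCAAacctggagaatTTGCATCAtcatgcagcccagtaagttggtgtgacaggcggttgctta
Psat1 (chr19:15925147-15925235, minus strand): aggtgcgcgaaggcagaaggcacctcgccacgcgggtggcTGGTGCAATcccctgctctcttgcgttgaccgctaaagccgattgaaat
Asns (chr6:7693185-7693272, minus strand): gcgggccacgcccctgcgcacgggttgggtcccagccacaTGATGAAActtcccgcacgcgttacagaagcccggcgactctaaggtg

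The core TGATGNAA was present in 5 of the 12 windows, those of Chac1, Trib3, Slc7a11, Asns and Atf3, and in 3.97% of all 32851 windows. Slc7a11 holds it in both orientations, beginning 66 and 47 bases before the start. In Asns it begins 23 bases before the start, in Chac1 193 and in Atf3 110 bases before it, and in Trib3 it lies 15 bases after the start. The motif TGNNGCAAT was present in 3 windows, Chac1, Trib3 and 1 of the 2 Psat1 windows, and in 2.12% of all. Its letters were spelled after these windows had been read, so its count in them cannot be weighed against that share. The cAMP response element TGACGTCA was in none of the 12 windows and in 1.79% of all. A match in these letters is a description. Genes with the core rose (Chac1, Trib3, Slc7a11), fell (Asns) or were not called in either knockout comparison (Atf3).

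Among the transcription factors, Atf4, the centre of the response, was the most abundant and rose by a similar amount in both lines. Its level was 499.8 and 517.4 CPM for Mettl3 WT, 652.0 and 656.5 for Mettl3 cKO, 490.4 and 495.2 for Virma WT, then 655.5 and 659.9 for Virma cKO. Both cKO groups lay above both WT groups without overlap. The log2 fold change was 0.36 ± 0.03 (SE) in the Mettl3 line and 0.41 ± 0.03 in the Virma line, or 1.29 and 1.33-fold. The effects of the lines differed by 0.05 ± 0.04, which was not called (edgeR, Benjamini-Hochberg adjusted p = 0.373). With a trend of counts with gene length and GC content removed, the Mettl3 value shrank to 0.12 and stayed called, and the difference was called at 0.31 (edgeR, adjusted p = 2.87e-06). It was also called with scaling by total count, at 0.15 (edgeR, adjusted p = 0.00721).

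Atf5, a relative of ATF4 that is also translated under stress and drives mitochondrial stress genes, rose more than Atf4. It stood at 37.8 and 30.9 CPM for Mettl3 WT, 60.6 and 61.9 for Mettl3 cKO, 37.5 and 39.6 for Virma WT, then 109 and 108 for Virma cKO. The WT groups of the lines overlapped, and the Virma cKO libraries were the highest. Its log2 fold change was 0.84 ± 0.07 in the Mettl3 line and 1.49 ± 0.08 in the Virma line, a called difference of 0.66 ± 0.11 (edgeR, Benjamini-Hochberg adjusted p = 3.48e-05). Without the length and GC trend the Mettl3 value was 0.40. In the annotation Atf5 shares exon bases with Nup62 and Il4i1 on the opposite strand, and the sources used here do not give whether counting used the strand. Nup62, a nuclear pore gene, rose by 0.49 ± 0.03 and 0.48 ± 0.04 in the Mettl3 and the Virma line, so the level of Atf5 is uncertain to the extent that their reads were mixed.

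Ddit3, which encodes the pro-apoptotic factor CHOP, was 21.5 and 21.6 CPM for Mettl3 WT, 24.8 and 23.9 for Mettl3 cKO, 19.4 and 20.8 for Virma WT, then 34.0 and 34.4 for Virma cKO. It rose in the Virma line, by 0.76 ± 0.10. In the Mettl3 line its log2 fold change of 0.17 ± 0.09 was not called (edgeR, Benjamini-Hochberg adjusted p = 0.0912), although the libraries did not overlap. That value passed narrowly with scaling by total count (0.20, edgeR adjusted p = 0.0498) and against the Virma WT libraries (0.27). The difference between the lines, 0.59 ± 0.13, was called (edgeR, adjusted p = 0.000887). Exons of Ddit3 overlap those of the methionyl-tRNA synthetase gene, Mars1 in the count table, on the opposite strand. Mars1 moved the other way in the Virma line, at −0.37 ± 0.04, and stood at 0.06 ± 0.04 in the Mettl3 line.

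Atf3, a stress-induced repressor of the same family that also answers as an immediate early gene, was called in neither knockout comparison. It stood at 18.8 and 18.3 CPM for Mettl3 WT, 16.9 and 17.5 for Mettl3 cKO, 24.9 and 25.9 for Virma WT, then 29.7 and 26.6 for Virma cKO. Its log2 fold changes were −0.11 ± 0.09 and 0.14 ± 0.10. The separation was by line: both Virma groups lay above both Mettl3 groups, and Virma WT exceeded Mettl3 WT by 0.45 ± 0.09, a called difference. Settings mattered here. Atf3 was called lower in Mettl3 cKO with the length and GC trend removed (−0.32, edgeR adjusted p = 0.00557) and against Virma WT (−0.56), and higher in Virma cKO with total count scaling (0.27, edgeR adjusted p = 0.0284). The difference between the lines, 0.25 ± 0.14, was called under the trend removal (0.48) and the total count scaling (0.35).

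Of the effectors, Chac1 encodes an enzyme that breaks down glutathione, and Trib3 a pseudokinase that feeds back on ATF4 and CHOP. Chac1 was 0.899 and 2.45 CPM for Mettl3 WT, 10.9 and 9.32 for Mettl3 cKO, 2.45 and 2.03 for Virma WT, then 12.4 and 12.5 for Virma cKO. All 4 cKO libraries lay above all 4 WT libraries. It rose 6.00-fold in the Mettl3 line (log2 2.58 ± 0.24) and 5.55-fold in the Virma line (2.47 ± 0.26). The difference between the lines was −0.11 ± 0.38 and was not called (edgeR, Benjamini-Hochberg adjusted p = 0.85). The Mettl3 WT libraries held 15 and 41 counts of Chac1, and leaving out either moved the Mettl3 value: it was 2.04 without replicate 1 and 3.48 without replicate 2. The difference between the lines was then 0.44 without replicate 1, not called, and −1.005 without replicate 2, called (edgeR, adjusted p = 0.0281).

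Trib3 was 17.26 and 19.15 CPM for Mettl3 WT, 55.7 and 57.8 for Mettl3 cKO, 20.5 and 19.9 for Virma WT, then 92.4 and 90.0 for Virma cKO. The WT groups lay close together and the Virma cKO libraries were the highest. It rose 3.11-fold in the Mettl3 line (1.64 ± 0.08) and 4.51-fold in the Virma line (2.18 ± 0.08), and the difference of 0.54 ± 0.11 was called (edgeR, Benjamini-Hochberg adjusted p = 0.000586). Ranked by log2 fold change among the 14229 genes, Chac1 was the rise number 67 in the Mettl3 line and number 28 in the Virma line, and Trib3 was number 210 and number 55. Atf4 itself was number 3258 and number 3503.

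**Figure D2:**
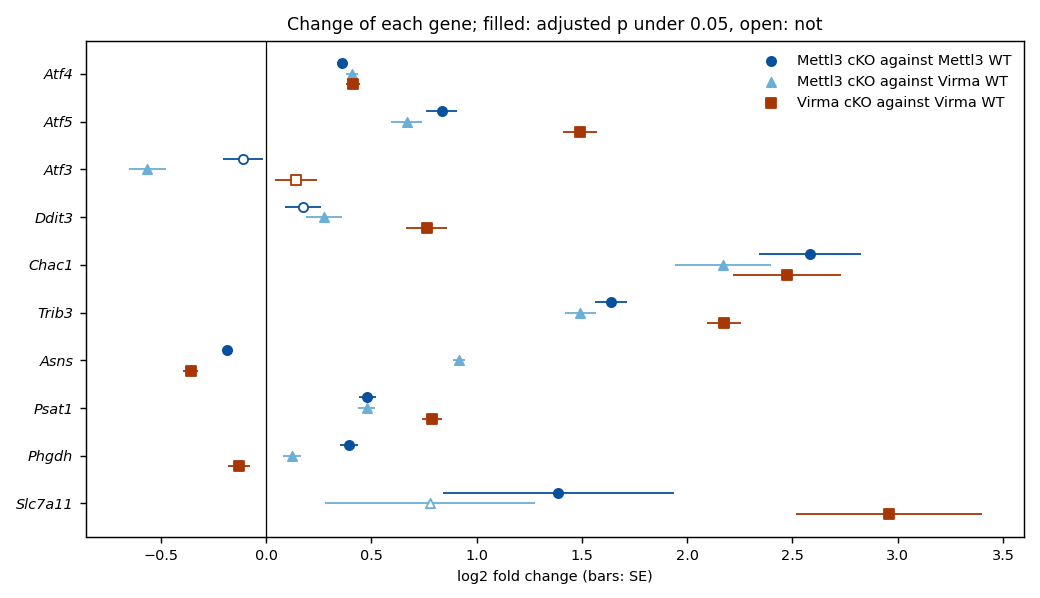
Log2 fold change (x axis) of each gene in 3 comparisons, with bars for the SE; filled symbols are called, open symbols are not. Chac1 and Trib3 lie far to the right in all 3. Asns is lower within each line and higher in Mettl3 cKO against Virma WT, a contrast across the lines.

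The genes of amino acid supply did not move together. Psat1, an enzyme of serine synthesis, was 119 and 118 CPM for Mettl3 WT, 167 and 164 for Mettl3 cKO, 123 and 115 for Virma WT, then 204 and 207 for Virma cKO. It rose by 0.48 ± 0.04 and 0.79 ± 0.05, with a called difference of 0.31 ± 0.06 (edgeR, Benjamini-Hochberg adjusted p = 0.000386). Its WT levels overlapped between the lines.

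Phgdh, which encodes the first enzyme of that pathway, stood at 101 and 107 CPM for Mettl3 WT, 138 and 136 for Mettl3 cKO, 123 and 127 for Virma WT, then 111 and 119 for Virma cKO. It rose in the Mettl3 line by 0.40 ± 0.04 (0.12 without the length and GC trend) and was lower in the Virma line, by a log2 fold change of −0.13 ± 0.05. The lower value in the Virma line rested on little: its adjusted p in edgeR was 0.0432, and the call was lost with DESeq2 (adjusted p = 0.171), with total count scaling (−0.0020, edgeR adjusted p = 0.98) and without either Virma WT library (−0.15 and −0.10), replicate 1 of Virma cKO (−0.079) or either Mettl3 cKO library (−0.13 each). Scaling by total count shifted the median of all genes in this comparison by 0.13. The difference between the lines, −0.52 ± 0.07, was called (edgeR, adjusted p = 1.3e-06).

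Asns, which makes asparagine and is among the best known ATF4 targets, was abundant and lower in both cKO groups. It stood at 728 and 731 CPM for Mettl3 WT, 643.5 and 640.9 for Mettl3 cKO, 336 and 344 for Virma WT, then 266 and 265 for Virma cKO. The 4 groups did not overlap, and the step between the lines was larger than either knockout effect. Asns fell by 0.18 ± 0.03 and 0.36 ± 0.04 on the log2 scale, and Virma WT was lower than Mettl3 WT by a log2 fold change of −1.10 ± 0.03. The knockout effects differed by −0.17 ± 0.04 (edgeR, adjusted p = 0.00304), and that call was lost with total count scaling (−0.075) and with the length and GC trend removed (−0.070).

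Slc7a11 encodes the cystine carrier of the exchanger xCT, which feeds glutathione synthesis and is a target of both ATF4 and NRF2. Its counts were the lowest of the 10 genes: 3 and 8 for Mettl3 WT, 12 and 17 for Mettl3 cKO, 9 and 8 for Virma WT, then 71 and 62 for Virma cKO. The Virma cKO libraries stood apart at 4.28 and 3.77 CPM, and the other 6 lay between 0.180 and 1.03 CPM. It rose by 2.96 ± 0.44 in the Virma line, number 9 among all rises. The ratio of its count shares was 8.66 there, with a 95% interval of 5.21 to 15.3 (exact binomial, counting error only). In the Mettl3 line the log2 fold change was 1.39 ± 0.55 (edgeR, Benjamini-Hochberg adjusted p = 0.0352), and the ratio of shares was 2.71 with an interval of 1.31 to 6.00. The Mettl3 call was lost with DESeq2 (adjusted p = 0.132), in a fit of the Mettl3 line alone (edgeR, adjusted p = 0.0641), against Virma WT (0.78, edgeR adjusted p = 0.188), without replicate 1 of Mettl3 WT (0.86, adjusted p = 0.165), without replicate 1 or 2 of Mettl3 cKO (1.62 and 1.11) and without either Virma WT library (1.39 each). The difference between the lines was 1.57 ± 0.77 and not called (edgeR, adjusted p = 0.113), though it was without replicate 1 of Mettl3 WT (2.10, adjusted p = 0.0129).

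Levels can be compared between genes only per length of exon, here the union of all annotated exons of a gene. In Mettl3 WT, Asns had the highest level, 267 CPM per kilobase, followed by Atf4 at 216, Phgdh at 41.9, Psat1 at 27.9, Atf5 at 17.2, Ddit3 at 12.6, Atf3 and Trib3 at 8.62 and 8.57, Chac1 at 1.02 and Slc7a11 at 0.0237. In Virma cKO the order was Atf4 at 279, Asns at 97.1, Atf5 at 54.5, Psat1 at 48.4, Phgdh at 46.2, Trib3 at 42.9, Ddit3 at 20.0, Atf3 at 13.1, Chac1 at 7.60 and Slc7a11 at 0.289. These groups differ in line and genotype. Atf4 was already above Asns in Virma WT (209 against 124 CPM per kilobase) and also in Mettl3 cKO (277 against 235). Trib3 was at 26.7 CPM per kilobase in Mettl3 cKO and 9.49 in Virma WT. The annotated exons of Slc7a11 span 13.9 kilobases in all, against 1.64 to 4.25 for the others, which lowers its value where only some of them are transcribed.

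**Figure D3:**
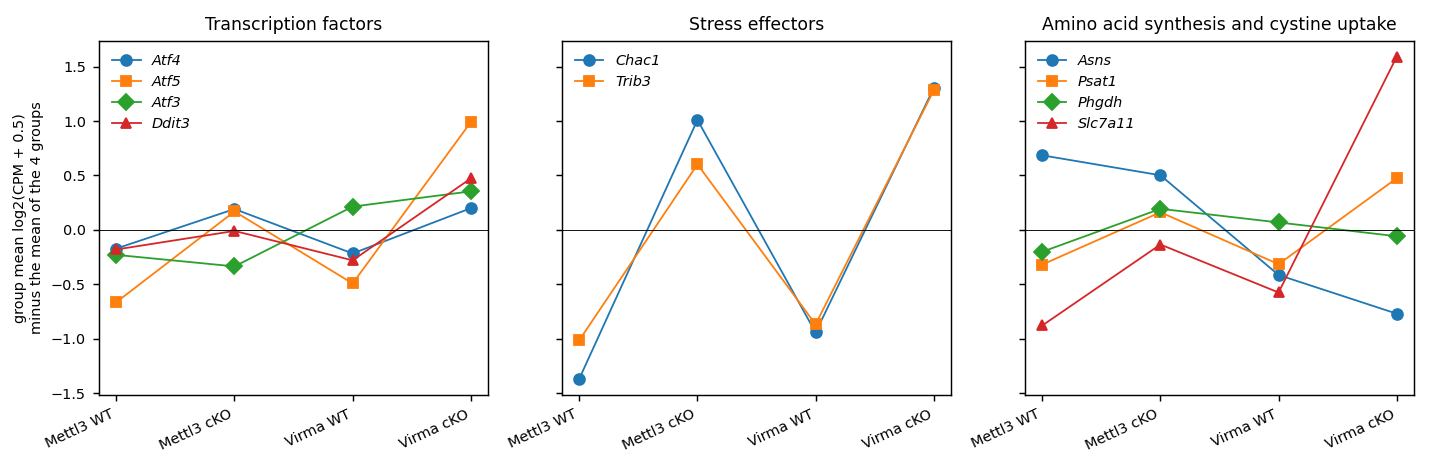
Group mean of log2(CPM + 0.5) of each gene minus its mean over the 4 groups, in 3 panels by role; the lines join groups only to guide the eye. Chac1 and Trib3 zigzag with the genotype, whereas Asns and Atf3 step between the lines.

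Tested directly, the effect in the Virma line was higher than that in the Mettl3 line for 4 of the 10 genes (Atf5, Ddit3, Trib3, Psat1) and lower for 2 (Asns, Phgdh). Over all genes, 17.9% were called higher and 21.2% lower in that test. The control groups were also compared with each other. Atf3 and Phgdh were higher in Virma WT than in Mettl3 WT (Phgdh by 0.27 ± 0.04) and Asns was lower, where 25.4% of all genes were higher and 22.2% lower. Atf4, Atf5, Ddit3, Chac1, Trib3, Psat1 and Slc7a11 were not called between the WT groups, with log2 fold changes from −0.10 for Ddit3 to 0.61 ± 0.61 for Slc7a11. Chac1 was called there without replicate 2 of Mettl3 WT (1.31) and Atf5 without replicate 1 (0.32).

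Since the Mettl3 WT libraries had the fewest genes with a count, the libraries labelled Mettl3 cKO were also set against Virma WT. In that contrast 8 of the 10 genes were higher and 1 lower, where 29.3% of all genes were higher and 29.2% lower. Chac1 was higher by 2.17 ± 0.23, Trib3 by 1.49 ± 0.07, Atf5 by 0.67 ± 0.07, Psat1 by 0.48 ± 0.04, Atf4 by 0.41 ± 0.03 and Phgdh by 0.12 ± 0.04. Asns turned around, to 0.92 ± 0.03. Line and genotype both differ in this contrast, and Asns stood at −1.10 ± 0.03 in Virma WT against Mettl3 WT. The contrast therefore cannot decide the direction of the knockout effect within the Mettl3 line. This contrast uses the same control libraries as the Virma comparison.

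Further genes of the pathway were taken as lists, given by counts of called genes and medians. They stand beside all genes tested, of which 27.1% were higher and 28.0% lower in the Mettl3 line (median 0.0086), and 26.2% and 26.1% in the Virma line (0.020). In Mettl3 cKO against Virma WT these shares were 29.3% and 29.2%. The upstream genes, 20 of eIF2 kinases, eIF2, its exchange factor eIF2B and their regulators, were mostly lower: 4 higher and 11 lower in the Mettl3 line (median −0.19), and 3 and 12 in the Virma line (−0.30). Against Virma WT, the Mettl3 cKO libraries had 6 higher and 9 lower (−0.056). Eif2ak3, the gene of the endoplasmic reticulum kinase PERK, was lower by −0.47 ± 0.06 and −0.40 ± 0.09. In Mettl3 cKO against Virma WT, where line differs too, it was called higher (0.17 ± 0.06). Its WT level was 61.8 CPM in the Mettl3 line and 39.6 CPM in the Virma line. Eif2ak4, the gene of the amino acid sensor GCN2, was lower in the Mettl3 line (−0.18 ± 0.06) and stood at −0.13 ± 0.07 in the Virma line, not called. Eif2ak2, the gene of the RNA sensor PKR, was lower in the Mettl3 line (−0.20 ± 0.07) and higher in the Virma line (0.26 ± 0.09), a called difference of 0.47 ± 0.11. Eif2ak1, the gene of the haem-regulated kinase HRI, was called in neither (−0.06 ± 0.06 and −0.12 ± 0.07).

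Oma1, a mitochondrial protease that starts the signal from mitochondria to HRI, rose in both, by 0.70 ± 0.08 and 0.51 ± 0.09. Dele1, another of these upstream genes, named after its values were seen, did not rise with it. It was called lower in the Virma line, from 65.6 CPM in Virma WT to 58.45 CPM in Virma cKO. In the Mettl3 line Dele1 went from 83.25 to 76.88 CPM and was not called. It was called higher in Mettl3 cKO against Virma WT, where line differs too. Ppp1r15a, which encodes the stress-induced subunit (GADD34) of the phosphatase that resets eIF2, rose in the Mettl3 line by 0.20 ± 0.03 and stood at −0.04 ± 0.04 in the Virma line. Impact, an inhibitor of GCN2 activation, was lower by −0.57 ± 0.05 and −0.33 ± 0.06. The eIF2B subunit gene Eif2b5 was at 0.07 ± 0.03, not called, in the Mettl3 line and lower by −0.65 ± 0.04 in the Virma line, and Eif2b4 was lower in both (−0.27 ± 0.06 and −0.72 ± 0.08).

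Of the bZIP partners and relatives of ATF4, 18 of 19 were tested, with 8 higher and 5 lower in the Mettl3 line (median 0.14) and 10 and 4 in the Virma line (0.24). Against Virma WT, Mettl3 cKO had 7 higher and 5 lower. The C/EBP genes Cebpb and Cebpd rose in both lines. Cebpb went from 16.2 ± 2.10 to 34.9 ± 2.37 CPM in the Mettl3 line (SD, n = 2) and from 24.2 ± 2.35 to 47.6 CPM in the Virma line, and Cebpd rose by 1.53 ± 0.14 and 0.90 ± 0.14. Jdp2, the gene of a repressor among these relatives, rose by 0.79 ± 0.10 and 1.34 ± 0.13. Creb3l2, a membrane-bound relative that serves secretory capacity, was lower by −0.78 ± 0.04 and −1.51 ± 0.07, and stood at 0.11 ± 0.05, not called, in Mettl3 cKO against Virma WT.

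Among 19 other ATF4 targets of stress and growth control, 12 were higher and 3 lower in the Mettl3 line (median 0.20), and 13 and 2 in the Virma line (0.39). Against Virma WT, the Mettl3 cKO libraries had 11 higher and 4 lower. Stc2, a secreted glycoprotein of stressed cells, rose by 1.10 ± 0.18 and 0.93 ± 0.17, and stood at 0.13 ± 0.15, not called, in Mettl3 cKO against Virma WT. Cth, which makes cysteine from cystathionine, rose by 1.01 ± 0.09 and 0.39 ± 0.10, and Nupr1, a small stress-induced chromatin protein, by 0.81 ± 0.08 and 1.24 ± 0.11. Fgf21, a secreted hormone of the response named after its values were seen, had 0 to 3 counts in the 4 WT libraries, 15 and 19 in Mettl3 cKO and 41 and 37 in Virma cKO.

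**Figure D4:**
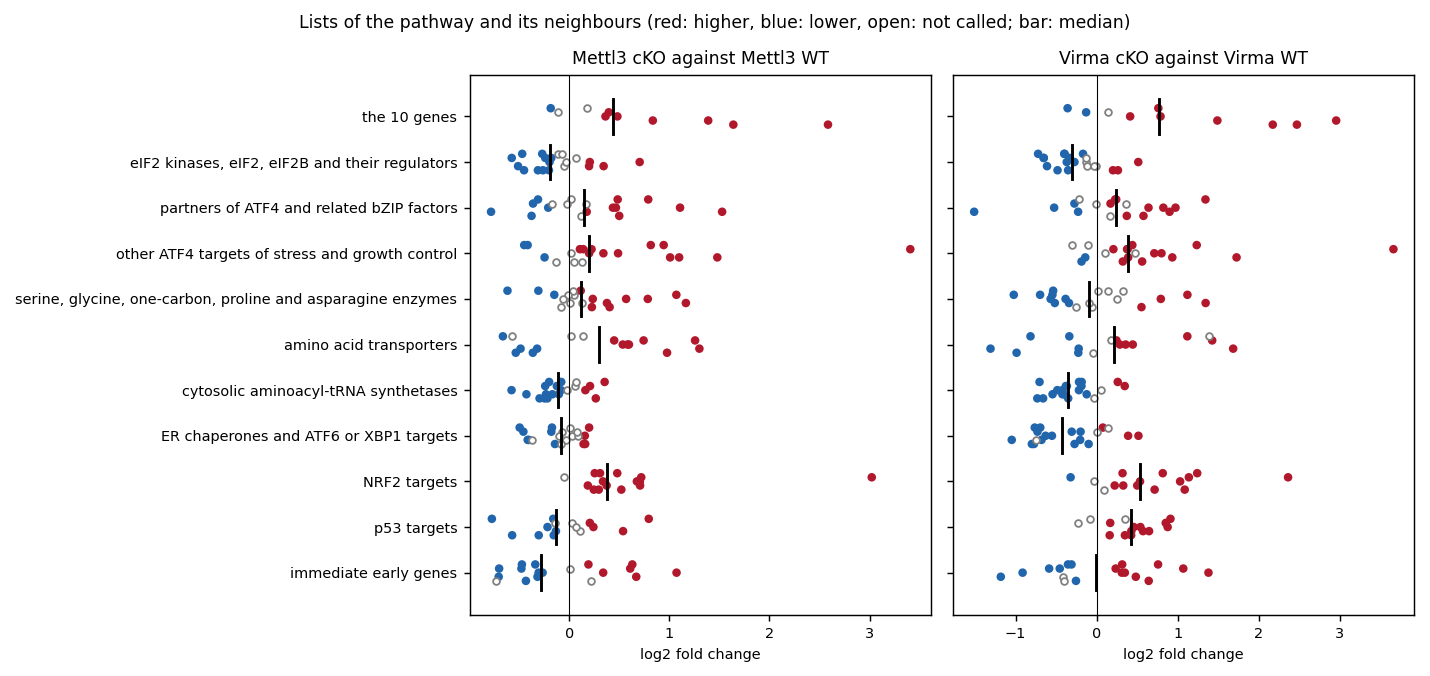
Log2 fold change (x axes) of every tested gene of the 10 genes and of 10 further lists in the Mettl3 line (left) and the Virma line (right); red points were called higher, blue lower, open points were not called, and bars mark the median. Upstream genes and tRNA synthetases lie mostly left of 0, ATF4 targets and NRF2 targets mostly right of it.

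Enzymes of serine, glycine, one-carbon, proline and asparagine metabolism, 19 tested, had 9 higher and 3 lower in the Mettl3 line (median 0.12) and 4 higher and 8 lower in the Virma line (−0.088). Against Virma WT, Mettl3 cKO had 11 higher and 3 lower. The mitochondrial enzymes Pck2 and Mthfd2, both ATF4 targets, rose in both: Pck2 by 1.17 ± 0.07 and 1.35 ± 0.09, and Mthfd2 by 0.78 ± 0.04 and 0.79 ± 0.05. Glul, which makes glutamine, was at 0.05 ± 0.03 in the Mettl3 line and lower by −1.02 ± 0.04 in the Virma line. Of 16 amino acid transporters, 8 rose and 5 fell in the Mettl3 line (median 0.29), and 7 rose and 6 fell in the Virma line (0.21). Against Virma WT, 9 were higher and 3 lower in Mettl3 cKO. The glycine carrier Slc6a9 rose by 1.3 ± 0.15 and 1.69 ± 0.19 and the neutral amino acid carrier Slc1a4 by 0.74 ± 0.06 and 1.43 ± 0.07. Slc7a3, a carrier of cationic amino acids, rose in the Mettl3 line by 1.26 ± 0.13 and stood at 0.18 ± 0.13 in the Virma line, where its WT level was already higher than in Mettl3 WT, by 1.44 ± 0.12. In Mettl3 cKO against Virma WT it was at −0.18 ± 0.11, not called.

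The cytosolic aminoacyl-tRNA synthetases, many of them ATF4 targets in other settings, were mostly lower. Of 20 tested, 4 were higher and 13 lower in the Mettl3 line (median −0.11), and 2 and 16 in the Virma line (−0.36). Against Virma WT, Mettl3 cKO had 5 higher and 11 lower (−0.14). The aspartyl enzyme Dars was lower by −0.58 ± 0.04 and −0.42 ± 0.05, and the lysyl enzyme Kars by −0.25 ± 0.03 and −0.73 ± 0.04. Kars was called higher in Mettl3 cKO against Virma WT (0.19 ± 0.03), a contrast in which line differs too. Its WT level was 630 CPM in the Mettl3 line and 465 CPM in the Virma line. The isoleucyl enzyme Iars was lower by −0.43 ± 0.03 and −0.12 ± 0.04, and the phenylalanyl subunit gene Farsb by −0.20 ± 0.04 and −0.70 ± 0.06. Chaperones of the endoplasmic reticulum and targets of ATF6 or XBP1, the other arms of the unfolded protein response, had 4 higher and 7 lower of 20 in the Mettl3 line (median −0.078) and 3 and 14 in the Virma line (−0.43). Against Virma WT, Mettl3 cKO had 4 higher and 6 lower. The abundant chaperone Hsp90b1 was lower by −0.14 ± 0.02 and −0.80 ± 0.03, and Herpud1, of the degradation machinery, by −0.41 ± 0.08 and −1.05 ± 0.12. The co-chaperone gene Dnajb9 was lower in the Mettl3 line (−0.49 ± 0.09) and at 0.14 ± 0.11, not called, in the Virma line. Edem1, of the degradation machinery too, was lower by −0.46 ± 0.05 and −0.20 ± 0.07 but higher in Mettl3 cKO against Virma WT (0.29 ± 0.05). Hspa5, the gene of the chaperone BiP and the usual marker of this stress, was called higher in both lines, by 0.20 ± 0.02 and 0.08 ± 0.03, and stood at −0.02 ± 0.02, not called, in Mettl3 cKO against Virma WT. It was named after its values were seen. The summed level of these 20 genes was 9787 to 9834 CPM in Mettl3 WT, 9639 to 9696 in Mettl3 cKO, 9450 to 9564 in Virma WT and 7221 to 7279 in Virma cKO. It was lowest in Virma cKO, where Chac1, Trib3 and Ddit3 were highest. Mettl3 cKO, with more Chac1 and Trib3 than Virma WT, had a higher sum than Virma WT, but line differs there too. A relation between this sum and the stress effectors was not tested.

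Targets of NRF2, the antioxidant factor that shares Slc7a11 with ATF4, rose together with these genes. Of 15 tested, 14 were higher and 0 lower in the Mettl3 line (median 0.37), 12 higher and 1 lower in the Virma line (0.54), and 13 higher and 0 lower in Mettl3 cKO against Virma WT. The gene lower in the Virma line was the peroxiredoxin gene Prdx1 (−0.32 ± 0.03), named after its value was seen. Osgin1, an oxidative stress-induced growth inhibitor, rose by 0.48 ± 0.20 and 1.24 ± 0.33. Gclm, a subunit of the enzyme that starts glutathione synthesis, rose by 0.72 ± 0.04 and 1.14 ± 0.05, and the carbonyl reductase gene Cbr3 went from 8.98 ± 2.21 to 73.0 ± 0.878 CPM in the Mettl3 line (SD, n = 2) and from 23.1 ± 0.768 to 119 CPM in the Virma line.

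The genes with the most similar profile over the 4 groups were sought among 11928 others with a mean of at least 2 CPM, by the root mean square difference of centred log2 group means over 4 groups. For Atf4 they were Dhrs11 (0.0125), Taf5 (0.013) and Morn2 (0.0162). For Chac1 they were Ltb (0.0617), Madcam1 (0.119) and Inka1 (0.162), with Ltb at 1.11 and 7.42 CPM in WT and cKO of the Mettl3 line, and 1.73 and 10.3 CPM in those of the Virma line. Those for Asns included Lgals4 (0.0609) and Arl4d (0.0643). Within the 10 genes the closest pair was Ddit3 and Psat1 (0.112), Chac1 lay 0.273 from Trib3, and the farthest pair was Chac1 and Asns (1.5).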

How the data were processed

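Total RNA of 8 libraries was analysed from raw counts per gene symbol, as deposited by the authors. TRIzol was used for RNA and libraries came, per the labels' protocols, from a SMARTer stranded and a VAHTS kit, with no statement of which library used which. Per the submitters' processing notes, the build was mm39 and the tools included STAR 2.7.11b, Subread, DESeq2, Trim Galore and FastQC 0.12.1. Annotation, strand setting and treatment of multi-mapping reads are, in the sources used here, not given.

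Genes passed filterByExpr over the 4 groups of libraries. They were fitted with edgeR 4.0.16 (R 4.3.3; quasi-likelihood, TMM factors, robust dispersion, Benjamini-Hochberg adjustment over 14229 genes, threshold 0.05). The Virma cKO pair entered as its rounded mean, assumed to vary like the other groups; 3 residual degrees of freedom remained. The SE given for a log2 fold change is its absolute value divided by the square root of the F statistic of its test. The code was tested on simulated data. Length and GC content came from GENCODE M21 (GRCm38), with values for 98.1% of genes tested, and promoters from RefSeq (GRCm38.p6). The genes, lists and naming rule (up to 2 called genes per list and line with the largest change and an average log2 CPM from 2 upwards, and set pathway genes; cell type marker lists by counts only) were chosen with earlier results of these data known. Lists of m6A writers and of trophectoderm and pluripotency markers were counted too. Alternatives were DESeq2 1.42.0, other scalings and filters, 8 separate libraries, a replicate block, single lines, removed gene classes, the length and GC trend, another control, stricter calls and leaving out each library. A gene among the closest profiles is not reported here.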

Additional observations from a re-analysis of the deposited data

Results flagged for a closer look

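For 6 of the 10 genes the effect in the Virma line and the effect in the Mettl3 line differed by the test of the difference itself (edgeR, Benjamini-Hochberg adjusted over all genes). On the log2 scale the Virma effect exceeded the Mettl3 effect by 0.66 for Atf5, 0.59 for Ddit3, 0.54 for Trib3 and 0.31 for Psat1. It was below it for Phgdh (−0.52) and Asns (−0.17). Phgdh rose in the Mettl3 line, and its lower level in the Virma line was called only under some settings.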

How the results depend on the processing

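Of the values of single genes under an alternative, 696 kept their direction and their side of the threshold, 18 lost and 21 gained a call, and 15 changed sign. Some alternatives could hardly move a value, such as leaving out a library of the other line. Without replicate 1 of Virma cKO the median shift in the Mettl3 line was −7.05e-10. The 696 therefore overstate how far the values were put to the test. Little sign of a pairing by the replicate numbers of the titles was seen. Across genes, deviations of same-numbered libraries correlated by 0.0376 between the Mettl3 groups and −0.0127 between the Virma groups. The highest value of any 2 groups was 0.159, between Mettl3 cKO and Virma WT. Sampling noise enters these deviations, and the Virma cKO libraries were no further apart than such noise over all genes, so pairing is not excluded. With the replicate block and 8 separate libraries, counts of higher and lower genes were 7 and 1 in the Mettl3 line and 7 and 2 in the Virma line, as in the fit without it. Calls over all genes were 7835 and 7439 with the Virma cKO pair as 1 sample, 8283 and 8914 with 8 separate libraries, and 8343 and 8960 with the block added to these.

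In the Mettl3 line, 2 genes were lower with the length and GC trend removed, alone or with the replicate block, and 3 were higher and 0 lower at 2-fold or more. In the Virma line, 1 gene was lower with DESeq2, total count scaling or a threshold of 0.01, and 4 were higher and 0 lower at 2-fold or more. In the difference, 1 was lower with total count scaling or the trend removed (also with the block), and 0 were higher or lower by 2-fold. Between the WT groups, 4 were higher with trend removal and replicate block, and 0 at 2-fold. Leaving out each library gave 6 to 7 higher and 1 lower in the Mettl3 line, 7 higher and 1 to 2 lower in the Virma line, 4 to 5 higher and 2 to 3 lower in the difference, and 2 to 3 higher and 1 lower between the WT groups.

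Signs changed as follows. Asns in the Mettl3 line was 0.92 against Virma WT. The Chac1 difference was 0.21 with the trend removed, 0.22 with the block as well, 0.44 without Mettl3 WT replicate 1 (against −1.005 without replicate 2), 0.0055 without Mettl3 cKO replicate 1 and 0.031 without Virma WT replicate 1. Between the WT groups, Atf4 was 0.018 with the trend removed, also with the block, and Chac1 −0.13 without Mettl3 WT replicate 1 (1.31 without replicate 2). Psat1 there, at 0.0042, turned to −0.0020 with DESeq2 or its size factors, −0.0046 with total count scaling, −0.00080 with the CPM filter, −0.00043 without Mettl3 WT replicate 2 and −0.044 without Virma WT replicate 1 (0.051 without replicate 2). Apart from the shift by scaling, the cause was not tested. DESeq2 called 5683 and 5256 genes in the Mettl3 and Virma lines, 3468 in the difference against 5569 with edgeR, and 4493 between the WT groups against 6773. Slc7a11 and Chac1 are limited by counts under 50 in every WT library.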

Other observations

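Of 15 p53 targets, 4 were higher and 7 lower in the Mettl3 line (median −0.13), where 27.1% of all genes were higher and 28.0% lower. In the Virma line 12 were higher and 0 lower (0.43), against 26.2% and 26.1% of all genes. In the test of the difference, 10 of the 15 were higher and 0 lower, against 17.9% and 21.2% of all genes. The nuclease gene Aen rose in both lines, by 0.79 ± 0.05 and 0.91 ± 0.05, and Perp, a membrane protein of p53-driven apoptosis, by 0.24 ± 0.07 and 0.88 ± 0.07; against Virma WT, Perp was called lower in Mettl3 cKO (−0.19 ± 0.06). Rrm2b, a ribonucleotide reductase subunit, was lower in the Mettl3 line (−0.77 ± 0.19) and at 0.35 ± 0.21, not called, in the Virma line. In Mettl3 cKO against Virma WT, 5 p53 targets were higher and 9 lower, against 29.3% and 29.2% of all genes. Of 18 immediate early genes, a class to which Atf3 belongs, 6 were higher and 9 lower in the Mettl3 line. In the Virma line 9 were higher and 7 lower, beside the same shares of all genes as for the p53 targets. In the test of the difference, 4 were higher and 4 lower, against 17.9% and 21.2% of all genes. In Mettl3 cKO against Virma WT, 4 were higher and 10 lower, against 29.3% and 29.2% of all genes. Fosl1 rose by 1.07 ± 0.20 and 1.38 ± 0.16 but was called lower in Mettl3 cKO against Virma WT (−0.39 ± 0.17), while Fosb was lower by −0.70 ± 0.10 and −0.59 ± 0.11. Ier2 was lower by −0.32 ± 0.04 and −1.18 ± 0.06.

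The m6A writer list had 2 higher (Rbm15, Wtap) and 1 lower (Mettl14) of 8 in the Mettl3 line, and 3 higher (Rbm15, Cbll1, Wtap) and 3 lower (Virma, Rbm15b, Mettl3) in the Virma line, named after their values were seen. These counts, and those of the marker lists that follow, stand beside 27.1% of all genes higher and 28.0% lower in the Mettl3 line, and 26.2% and 26.1% in the Virma line. Mettl14, the partner subunit of METTL3, was lower by −0.78 ± 0.07 in the Mettl3 line and stood at −0.05 ± 0.08 in the Virma line. Of 14 pluripotency markers, 5 were higher and 6 lower in the Mettl3 line and 2 and 9 in the Virma line. Of 12 trophectoderm markers the counts were 3 and 5, and 4 and 4.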
